A study of Mus musculus with 18 samples.

Results

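The genes described here code for the factors that start and extend protein synthesis. They are the 65 protein-coding genes, of 54838 rows in the deposited count table, whose GENCODE M21 symbol begins with Eif1 to Eif6 or with Eef, leaving out the eIF2 kinases, the eIF4E-binding proteins and Eif4enif1 and adding Pabpc1, Pabpc4, Tpt1 and Rack1. The rule itself goes by names and uses no measured value. RNA was sequenced from wild-type C57BL/6 mice in 18 libraries of 6 groups, with 3 biological replicates in each group. LY6C_T and LY6C_P are total and polysomal RNA of myeloid-derived suppressor cells (MDSC) sorted as CD11b-high, Ly6G-negative and Ly6C-high. LY6G_T and LY6G_P are the same fractions of MDSC sorted as CD11b-high, Ly6G-high and Ly6C-intermediate. Both kinds of MDSC were grown from bone marrow in culture for 5 days, sorted, plated, and collected the next day with cycloheximide, which holds ribosomes on mRNA. BM_T and BM_P are total and polysomal RNA of whole marrow flushed from the femurs of 3 mice and freed of red cells by lysis. Polysomal RNA is the part that sedimented with several ribosomes in a sucrose gradient, from extracts made in a buffer with cycloheximide.

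An mRNA is read after initiation factors have brought the small ribosomal subunit to its start codon. The eIF4F complex (the cap binder eIF4E, the scaffold eIF4G and the helicase eIF4A) recruits the mRNA, eIF3 holds the small subunit, and eIF2 carries the initiator tRNA, with eIF1, eIF1A, eIF5 and eIF5B acting at the start codon. The elongation factors eEF1A and eEF2 then deliver tRNAs and move the ribosome along, and eIF5A helps it through difficult stretches. Many mRNAs for elongation factors carry a 5' terminal oligopyrimidine (TOP) tract, a C followed by pyrimidines at the first base, through which mTOR signalling controls their loading on ribosomes.

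The bases around the annotated start are shown for 4 members of the TOP list, because the tract is the known regulatory feature of these mRNAs. RefSeq (GRCm38.p6) held a start for 7 of the 12 genes on that list and for 50 of the 65 members. Each run holds 15 bases before the start and 15 from it, 5' to 3' on the gene's strand, and capitals mark the longest stretch of a C followed by at least 4 pyrimidines.
Rack1, chr11:48800345-48800374, plus strand: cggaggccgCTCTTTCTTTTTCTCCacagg
Eif3f, chr7:108934400-108934429, plus strand: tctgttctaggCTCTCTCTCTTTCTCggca
Eef1a1, chr9:78481710-78481739, minus strand: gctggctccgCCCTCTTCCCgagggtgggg
Eef2, chr10:81176616-81176645, plus strand: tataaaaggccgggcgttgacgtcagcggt
In Rack1 and Eif3f the stretch began 6 and 4 bases before the annotated start and ran across it, and the first base was itself a C followed by at least 4 pyrimidines, as at 823 of 32851 mouse starts. In Eef1a1 the stretch also lay across the start, without this at the first base, and in Eef2 the window held none. Of the 7 TOP list starts, 2 had a C followed by at least 4 pyrimidines at the first base, those of Rack1 and Eif3f. A stretch lay in the window of 4 of the 7, beside 36.4% of all mouse starts. Of those not printed, Eef1b2 and Tpt1 held none, and in Eif4b it ended before the start. Outside the TOP list, 1 of 54 starts had the tract at the first base, that of Eif2s3x, the X-linked gene for the gamma subunit of eIF2. No match says only that these letters are not in this window.

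The libraries differed widely in how many counts fell on these genes. The members took 46070 to 251330 counts in a sorted library, 4993 to 15508 in BM_P and 885 to 1024 in BM_T. Protein-coding genes, leaving out those of the mitochondrial genome and Lars2, made up 0.267% ± 0.0308 (SD, n = 3) of all counts in BM_T. In the sorted libraries that share was 37.3% to 94.6%, lowest in LY6C_T. Levels are given in CPM, each library's counts relative to its TMM-adjusted size, and 1 CPM stood for 18.04 to 110 counts in the sorted libraries but for 1.73 to 3.51 in BM_P and 0.472 to 0.611 in BM_T. Of the 65 members, 61 were among the 14181 genes that passed the filter on low counts; Eef1a2, Eef1akmt3 and Eif3j2 did not, and Eif4e1b had 0 counts in every library. Markers of the sort went partly against the labels: Ly6g stood at 1.63, 1.73 and 8.73 CPM in LY6G_T and at 1.84, 4.16 and 4.16 in LY6C_T. Ly6c2 ran as labelled at every replicate number, with 76.3, 94.3 and 81.9 CPM in LY6C_T and 56.1, 70.0 and 48.9 in LY6G_T. Among the LY6C libraries, replicate number 3 had neutrophil marker sums of 3262 CPM in LY6C_T and 4057 in LY6C_P, against 367 to 1074 in numbers 2 and 6.

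Markers of erythroid, stromal and B lineage cells were higher in marrow than in the sorted samples, while the 4 T and NK markers overlapped. Those 4 summed to at most 7.03 CPM in BM libraries and to at most 5.26 in sorted ones. The 9 erythroid markers summed to 390 to 1074 CPM in BM libraries and to at most 7.44 in sorted ones, 4 stromal and bone markers to 2003 to 6850 CPM against at most 4.99, and 8 B lineage markers to 59.3 to 98.7 against at most 6.34. The 6 monocyte and macrophage markers summed to 745 to 2855 CPM in sorted libraries and to 81.8 to 144 in BM. The 8 neutrophil markers summed to 1756 to 2603 CPM in BM_P and to 596 to 1033 in LY6G_P, sorted as Ly6G-high. In LY6C_P, sorted as Ly6G-negative, they summed to 918 to 4057 CPM, on both sides of BM_P. In total RNA the sums overlapped, at 684 to 743 CPM in BM_T, 374 to 910 in LY6G_T and 367 to 3262 in LY6C_T. The part of these cells in the differences between sorted cells and BM was not tested, and in bulk RNA fewer cells of a type and less RNA per cell cannot be told apart.

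In CPM per kilobase of exonic length, Eef1a1 and Eef2 led in every polysomal group. That length joins all annotated exons of a gene, such as 5119 bases for Rack1, and can exceed the mRNA in use. The order of genes, and the shares of paralogs given below, therefore depend on the annotation and are approximate. Eef1a1, which delivers aminoacyl-tRNA, had the highest level: 211 ± 81.9 (SD, n = 3) in LY6C_P, 144 ± 19.9 in LY6G_P and 448 ± 239 in BM_P. Eef2, the translocase, came second with 97.4 ± 19.5, 70.1 ± 14.0 and 100.5 ± 38.8. In the sorted cells Eif5a followed with 59.0 ± 8.20 and 50.0 ± 5.81, and the ranges of these 3 genes did not touch those of the next gene in the order. Below them came Eif1, which guards start codon choice, at 25.4 ± 6.09 in LY6C_P and 25.6 ± 4.36 in LY6G_P, with Tpt1 and Eif4a1 among the genes next in order and overlapping it. In BM_P the third place went to Eif3b at 41.0 ± 5.67, whose range lay above that of Eif5a at 28.2 ± 1.91. Eif5a, Eif3a at 27.8 ± 2.93 and Pabpc1 at 27.8 ± 1.99 overlapped. Eef1a2, the eEF1A copy known from muscle and nerve, reached at most 0.0427 CPM per kilobase in a sorted library. Eef1a1, Rack1, Tpt1 and Eif3j1 have near-identical processed copies or paralogs in the mouse genome, and how the authors' counting shared reads among them is not given, so their values are uncertain to that extent.

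**Figure D1:**
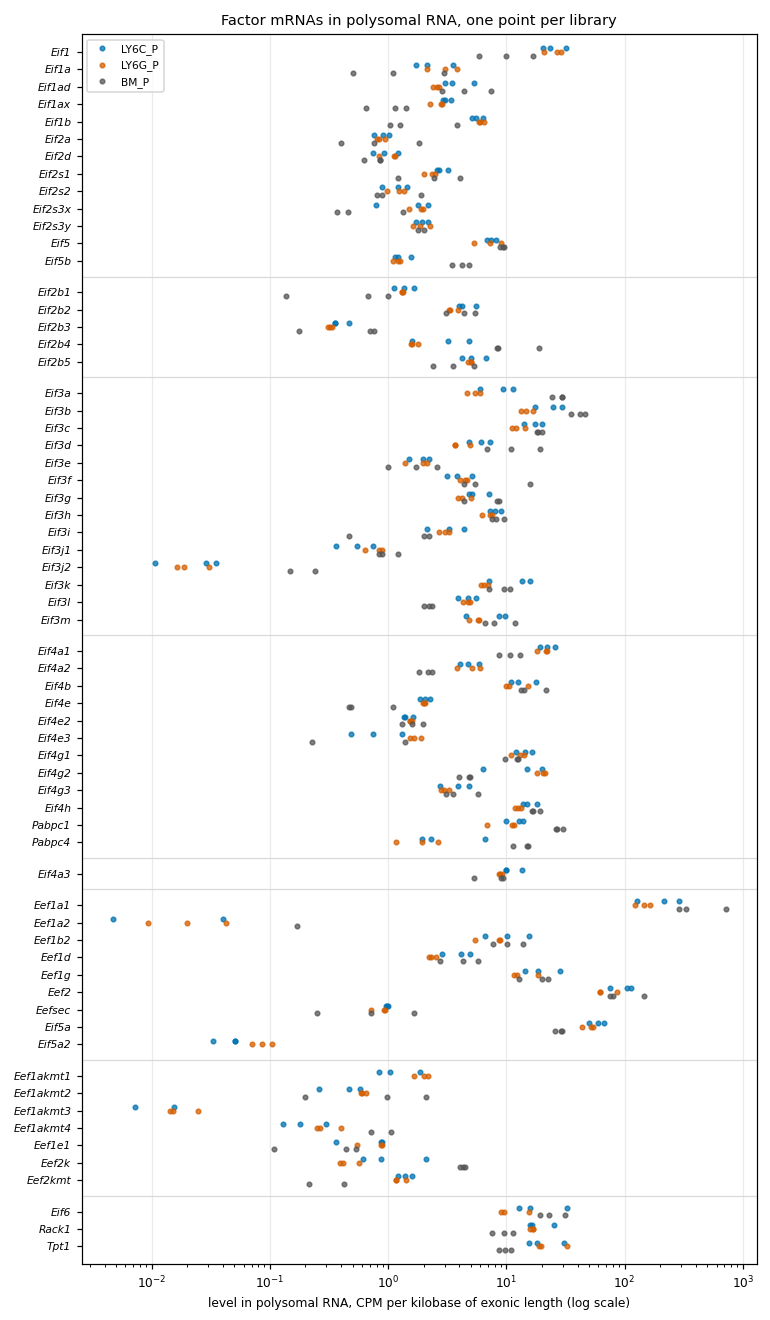
Level of each factor mRNA in polysomal RNA, in CPM per kilobase of exonic length on a log axis, with 1 point for each library and lines between the functional groups; libraries without a count are not drawn and Eif4e1b, at 0 counts, is left out. Eef1a1, Eef2 and Eif5a lie at the right in the sorted cells, and BM_P points lie right of the sorted ones for Eif3a, Eif5b, Pabpc4 and Eef2k and left of them for Eif4g2.

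The largest contrasts among the factors were between sorted cells and marrow, and they went both ways within the same complex. In polysomal RNA, 12 of 61 members (19.7%) were higher in LY6C_P than in BM_P and 8 (13.1%) were lower, where a call is an adjusted p under 0.05 in edgeR's quasi-likelihood test over all genes; of all genes tested, 31.4% were called, 20.2% higher and 11.2% lower. Against LY6G_P the counts were 12 (19.7%) higher and 10 (16.4%) lower, beside 37.5% of all genes called, 22.1% higher and 15.3% lower. In total RNA, 14 members were higher and 4 lower in LY6C_T than in BM_T, beside 27.9% of all genes (20.5% higher, 7.40% lower), and 16 and 7 in LY6G_T, beside 30.8% (21.5% and 9.39%). With limma voom the split of all genes turned to 2822 higher and 3087 lower in LY6C_T and 3211 and 3427 in LY6G_T, while members stood at 11 and 5 and at 16 and 6. By edgeR the members' shares are near those of all genes, so the number of calls is no result about the factors as a group. The counts by role below rest on few genes and are no result about the roles either. Which of the factors went up or down is what follows. The median log2 difference of the members was 0.08 in LY6C_P and -0.24 in LY6G_P, against 0.52 and 0.46 for all genes. By limma voom the medians were 0.14 for members and 0.12 for all genes in LY6C_P, and -0.08 and 0.12 in LY6G_P. The LY6C_P member median took the other sign under some settings, such as -0.16 with a filter of 50 counts in 3 libraries and -0.09 without sorted replicate number 3. LY6C and LY6G are compared with the same BM libraries, so the calls of both share those samples. Of the members, 7 were called higher in all 4 comparisons (Eif1, Eif1ax, Eif3l, Eif4a1, Eif4e, Eif4g2 and Eef2kmt) and 3 were called lower in all 4 (Eif3a, Eif5b and Pabpc4). Eif3a and Eif5b kept their calls under all 16 alternatives of each comparison, and Pabpc4 lost it under 5 in LY6C_T alone. None of the 7 higher genes kept its call under all alternatives of the 4 comparisons: Eif4g2 lost it only in LY6C_P without sorted replicate number 2, and Eif4a1 kept it in 9 to 13 of 16. Fewer members were called without the sorted libraries of replicate number 2. The members called came to 7 (1 higher, 6 lower) in place of 20 in LY6C_P and to 12 in place of 22 in LY6G_P. In total RNA they came to 9 in place of 18 in LY6C_T and to 13 in place of 23 in LY6G_T. Calls over all genes fell too, from 4453 to 2451 in LY6C_P and from 5313 to 3528 in LY6G_P. In LY6C_T they fell from 3963 to 2301 and in LY6G_T from 4374 to 2885, so the loss was not particular to the members. Without BM_T replicate 2 the member totals in LY6C_T and LY6G_T were 11 and 14, beside 2970 and 3380 of all genes.

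At the start codon, Eif1 and Eif1ax were higher and the joining factor Eif5b was lower in sorted polysomes. Eif1 (chr11:100319885-100322096) stood at 43.2, 49.0 and 67.7 CPM in LY6C_P, at 61.1, 56.3 and 43.4 in LY6G_P and at 35.4, 20.8 and 12.3 in BM_P. All sorted libraries were above all BM_P libraries, and the log2 difference was 1.22 ± 0.36 (SE; adjusted p = 0.0149) for LY6C_P and 1.22 ± 0.36 (adjusted p = 0.012) for LY6G_P. Eif1ax, the X-linked gene for eIF1A, had 15.9, 17.8 and 15.3 CPM in LY6C_P, 15.1, 14.8 and 11.9 in LY6G_P and 3.42, 7.52 and 5.97 in BM_P. Its differences were 1.58 ± 0.42 and 1.35 ± 0.42, with groups that did not overlap. Eif1a, the other eIF1A gene, was not called, at 0.65 ± 0.59 (SE) and 0.93 ± 0.59. Eif5b (chr1:37998010-38055579), the GTPase that joins the ribosomal subunits, went the other way with 11.9, 11.2 and 15.1 CPM in LY6C_P, 10.8, 12.2 and 11.8 in LY6G_P and 46.8, 41.0 and 33.7 in BM_P. It was lower by 1.67 ± 0.28 (adjusted p = 0.000162) and 1.80 ± 0.28 on the log2 scale (adjusted p = 6.33e-05), again without overlap. The subunits of eIF2 itself, Eif2s1, Eif2s2, Eif2s3x and Eif2s3y, passed the test in neither polysomal comparison; Eif2s1 differed by 0.13 ± 0.47 in LY6C_P and -0.18 ± 0.47 in LY6G_P. Eif1b, a second gene for eIF1, was called higher at 1.38 ± 0.52 and 1.49 ± 0.52, on 21 counts in BM_P, and kept its call under 5 and 8 of 16 alternatives. Of the 13 start codon genes, 3 rose and 1 fell in each polysomal comparison. Of all genes, 20.2% rose and 11.2% fell in LY6C_P, and 22.1% and 15.3% in LY6G_P, so this count is no result about the group.

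In the exchange factor eIF2B, which recharges eIF2 with GTP, 1 of 5 subunits was called, beside 31.4% of all genes in LY6C_P and 37.5% in LY6G_P. Eif2b4, the delta subunit, had 4.18, 12.6 and 8.27 CPM in LY6C_P, 4.16, 4.02 and 4.61 in LY6G_P and 49.1, 21.97 and 21.8 in BM_P. All 6 sorted libraries were below BM_P, by 1.91 ± 0.49 (adjusted p = 0.00569) and 2.87 ± 0.51 on the log2 scale (adjusted p = 0.000194). In total RNA its 11 counts in BM_T gave no call. Eif2b5, the catalytic subunit, differed by 0.51 ± 0.35 and 0.40 ± 0.34 in the polysomal comparisons and did not pass the test.

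The subunits of eIF3 did not move as a block. Eif3a (chr19:60761117-60790658), the large scaffold subunit, had 52.1, 81.8 and 99.8 CPM in LY6C_P, 47.1, 52.6 and 40.8 in LY6G_P and 258, 257 and 213 in BM_P. It was lower by 1.64 ± 0.29 (adjusted p = 0.000263) and by 2.37 ± 0.30 on the log2 scale (adjusted p = 5.65e-06), and it was called lower in both total RNA comparisons, by 1.62 ± 0.30 in LY6C_T. Every sorted library lay under every BM library in both fractions. Eif3b, its partner in the core, was lower by 1.46 ± 0.31 in LY6G_P (adjusted p = 0.000937), while in LY6C_P the difference of -0.77 ± 0.30 gave an adjusted p of 0.0578 by edgeR and was called under 7 alternatives. In total RNA Eif3b was called lower in both, by 1.32 ± 0.31 in LY6C_T. Eif3d, a subunit that can bind the cap, was lower by 1.04 ± 0.34 and 1.61 ± 0.34. Eif3l, a peripheral subunit, was higher: 17.2, 20.1 and 14.2 CPM in LY6C_P and 18.04, 17.2 and 15.8 in LY6G_P stood against 8.56, 8.10 and 7.38 in BM_P, a log2 difference of 1.10 ± 0.34 and 1.09 ± 0.34. Only 1 Eif3l count was seen in BM_T, so the total RNA ratio of 26.5 for LY6C_T has a counting interval of 4.75 to 1047. Of the 13 tested subunits, 1 rose and 3 fell in each polysomal comparison, beside 20.2% and 11.2% of all genes in LY6C_P and 22.1% and 15.3% in LY6G_P. These counts are small and are no result about the complex. The third that fell was Eif3b in LY6G_P and Eif3f in LY6C_P (log2 difference -1.10 ± 0.41). The BM_P libraries of Eif3f, at 45.9, 15.6 and 12.7 CPM, overlapped LY6C_P, and its call held under 7 of 16 alternatives.

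Among the cap complex genes the scaffold paralogs parted. Eif4g2 (chr7:111067750-111083030), also called DAP5, resembles eIF4G but lacks the eIF4E-binding part. It had 202, 153 and 64.3 CPM in LY6C_P, 207, 216 and 186 in LY6G_P and 40.8, 50.3 and 49.5 in BM_P. All sorted libraries exceeded BM_P, by 1.58 ± 0.35 (adjusted p = 0.00176) and 2.12 ± 0.35 (adjusted p = 0.000113), and it was called in total RNA too. Eif4g1, the main scaffold, differed by 0.32 ± 0.29 and 0.15 ± 0.29 and did not pass the test. Per kilobase, Eif4g2 made up 41.0% ± 13.3 (SD, n = 3) of eIF4G mRNA in LY6C_P, 55.9% ± 3.24 in LY6G_P and 22.8% ± 1.44 in BM_P. Eif4e, the cap binder, was higher in both polysomal comparisons, by 1.56 ± 0.43 and 1.52 ± 0.43, with 11.3 to 13.7 CPM in sorted libraries and 2.81 to 6.56 in BM_P. Eif4a1, the main helicase, was higher by 1.04 ± 0.32 and 0.92 ± 0.32, with 78.3 to 112 CPM against 37.6 to 57.0. Eif4a2, its paralog, was called higher in total RNA only, where BM_T held 36.0, 1.64 and 0 CPM.

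Both poly(A)-binding proteins were lower in sorted polysomes. Pabpc1 (chr15:36595661-36609668), which links the tail to eIF4G, had 84.0, 89.7 and 65.2 CPM in LY6C_P, 76.4, 73.0 and 44.9 in LY6G_P and 196, 176 and 172 in BM_P. The groups did not overlap, and the differences were -1.19 ± 0.29 (adjusted p = 0.00389) and -1.49 ± 0.29 (adjusted p = 0.000528). In total RNA Pabpc1 was not called. Pabpc4 (chr4:123262351-123298925) had 9.35, 26.6 and 7.81 CPM in LY6C_P, 7.83, 10.6 and 4.66 in LY6G_P and 61.9, 46.2 and 60.8 in BM_P, and was lower in both fractions of both populations, by 1.95 ± 0.51 and 2.88 ± 0.53 in polysomal RNA. Its highest sorted library was number 3 of LY6C, which also had the highest neutrophil marker sum; Eef2k and Eif2b4 were highest in the same number. The part of that in these values was not tested. Per kilobase, Pabpc4 made up 33.4% ± 3.33 (SD, n = 3) of both mRNAs in BM_P and 21.4% ± 9.66 in LY6C_P and 15.9% ± 2.70 in LY6G_P.

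Of the elongation genes, Eif5a was higher in LY6C_P (120 to 158 CPM against 61.9 to 69.9; log2 difference 1.06 ± 0.33, adjusted p = 0.0176) and not called in LY6G_P at 0.82 ± 0.33 (adjusted p = 0.0525); 5 alternatives called it there, and 6 lost the call in LY6C_P. Eef1a1 had 315, 722 and 543 CPM in LY6C_P, 308, 362 and 407 in LY6G_P and 1803, 832 and 720 in BM_P. It was lower by 1.64 ± 0.42 in LY6G_P (adjusted p = 0.00483). In LY6C_P the difference was -1.09 ± 0.42 (adjusted p = 0.0535), and 1 LY6C_P library exceeded the lowest BM_P library. It was called there under 8 alternatives, among them DESeq2 (adjusted p = 0.026) and limma voom (adjusted p = 0.0427). The LY6G_P call was lost without BM_P replicate 1, with an edgeR adjusted p of 0.0502. Replicate 1 of BM_P was the highest. Eef2 differed by -0.05 ± 0.32 and -0.52 ± 0.32 and passed in neither. The enzymes that act on these factors differed too. Eef2k, the kinase that phosphorylates and slows eEF2, had 4.52, 15.4 and 6.39 CPM in LY6C_P, 2.88, 4.20 and 3.08 in LY6G_P and 30.2, 33.0 and 31.6 in BM_P. It was lower by 1.85 ± 0.50 (adjusted p = 0.00806) and 3.22 ± 0.53 (adjusted p = 9.16e-05) on the log2 scale, without overlap. Eef2kmt, a lysine methyltransferase of eEF2, was higher by 2.62 ± 0.60 and 2.45 ± 0.60, on 5 counts in BM_P. Eef1akmt1, a lysine methyltransferase of eEF1A, had 0 counts in BM and was at least 3.18-fold higher in LY6C_P and at least 4.98-fold higher in LY6G_P, against a floor of 3 counts over BM_P.

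The ribosome-bound genes split. Rack1, a protein of the small subunit, and Tpt1, which has been linked to eEF1A, were higher in LY6C_P by 1.02 ± 0.38 (adjusted p = 0.0449) and 1.13 ± 0.39 (adjusted p = 0.033). In LY6G_P, Tpt1 was again called at 1.28 ± 0.39, and Rack1 stood at 0.80 ± 0.38 with an adjusted p of 0.101. Eif6, which keeps the large subunit from joining, was lower in LY6G_P by 1.12 ± 0.38 (adjusted p = 0.0253) and differed by -0.27 ± 0.38 in LY6C_P. These calls were among the least stable: of 16 alternatives, 6 kept Rack1 and 7 kept Tpt1 in LY6C_P, 13 kept Tpt1 and 8 kept Eif6 in LY6G_P.

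**Figure D2:**
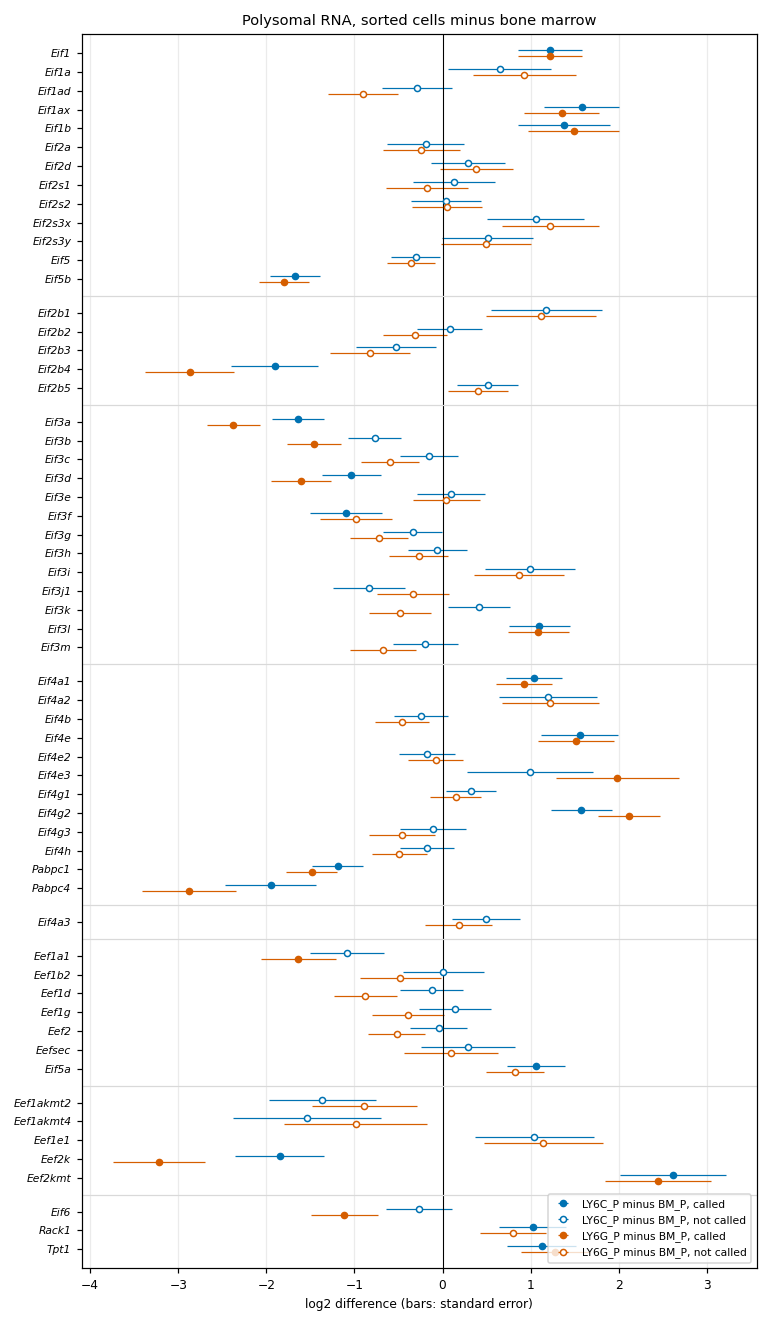
Log2 difference of polysomal levels, LY6C_P minus BM_P and LY6G_P minus BM_P, for the tested members in functional order; bars are standard errors, filled points passed an adjusted p of 0.05 and open points did not. Genes with 0 counts in BM_P are left out, since their fitted value is no measure of size; Eif4g2 and Eif4e stand to the right and Eef2k, Pabpc4, Eif2b4 and Eif3a to the left in both populations.

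Between polysomal and total RNA of the sorted cells no factor passed the test. edgeR called 0 of 61 members in LY6C and 0 in LY6G, as it called 0% of all genes in both. At an unadjusted p under 0.05 there were 3 members in LY6C and 1 in LY6G, given without the share of all genes and so no result about the factors. DESeq2 called no member, beside 6 of all 14181 genes in LY6C and 4 in LY6G, all lower. By limma voom Pabpc1 was called lower in LY6G alone, beside 100 of all genes there (2 higher, 98 lower) and 0 in LY6C. Pabpc1 had 153, 122 and 116 CPM in LY6C_T against 84.0, 89.7 and 65.2 in LY6C_P, and 120, 128 and 110 in LY6G_T against 76.4, 73.0 and 44.9 in LY6G_P. No polysomal library reached a total one, yet edgeR's log2 differences of -0.71 ± 0.29 and -0.88 ± 0.29 had unadjusted p of 0.0226 and 0.00605 and adjusted p of 1. With limma voom the LY6G value was -0.73 with an adjusted p of 0.00379. Eif6 had differences of the other sign, 0.98 ± 0.38 in LY6C and 0.70 ± 0.37 in LY6G, and its ratio by replicate number was 0.37, 0.55 and 1.61 in LY6C and 0.26, 0.29 and 1.38 in LY6G, largest in number 6 both times.

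The direction by replicate number is given as a description, since the numbers tie polysomal and total RNA of 1 culture. On the log2(CPM + 1) scale, 25 of the 61 members (41.0%) had a polysomal level above the total one in all 6 pairs of sorted libraries, beside 16.8% of all genes tested, and 5 (8.20%) below it in all 6, beside 11.6%. LY6C and LY6G libraries of the same number also correlated, at 0.51 to 0.69 in total and 0.31 to 0.58 in polysomal RNA. The 6 pairs are therefore not independent. All genes were not matched to the members for level, so an excess among the factors was not tested. The 25 included Eif3a, Eif3b, Eif3c, Eif3d, Eif3g and Eif3i of eIF3, Eif4b, Eif4e and Eif4g1 of the cap complex, and Eef1d, Eef2 and Eif5a of elongation. Those below were Pabpc1, Eif4a2, Eif4e2, Eif5, the partner that triggers GTP hydrolysis by eIF2, and Eif2s3y, the Y-linked gamma subunit. Eef2 was higher by 0.12, 0.48 and 1.03 in LY6C and by 0.08, 0.08 and 0.46 in LY6G, and Eif5 was at -0.32, -0.32 and -0.27 and at -0.40, -0.29 and -0.71. Across the 61 members the log2 differences of LY6C and LY6G had a Pearson correlation of 0.78 and a Spearman correlation of 0.79, given without a test because genes are not replicates. The members' median difference was 0.20 in LY6C and 0.10 in LY6G, against 0.01 and 0 for all genes, and it was -0.03 in LY6C without LY6C_T replicate 6.

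**Figure D3:**
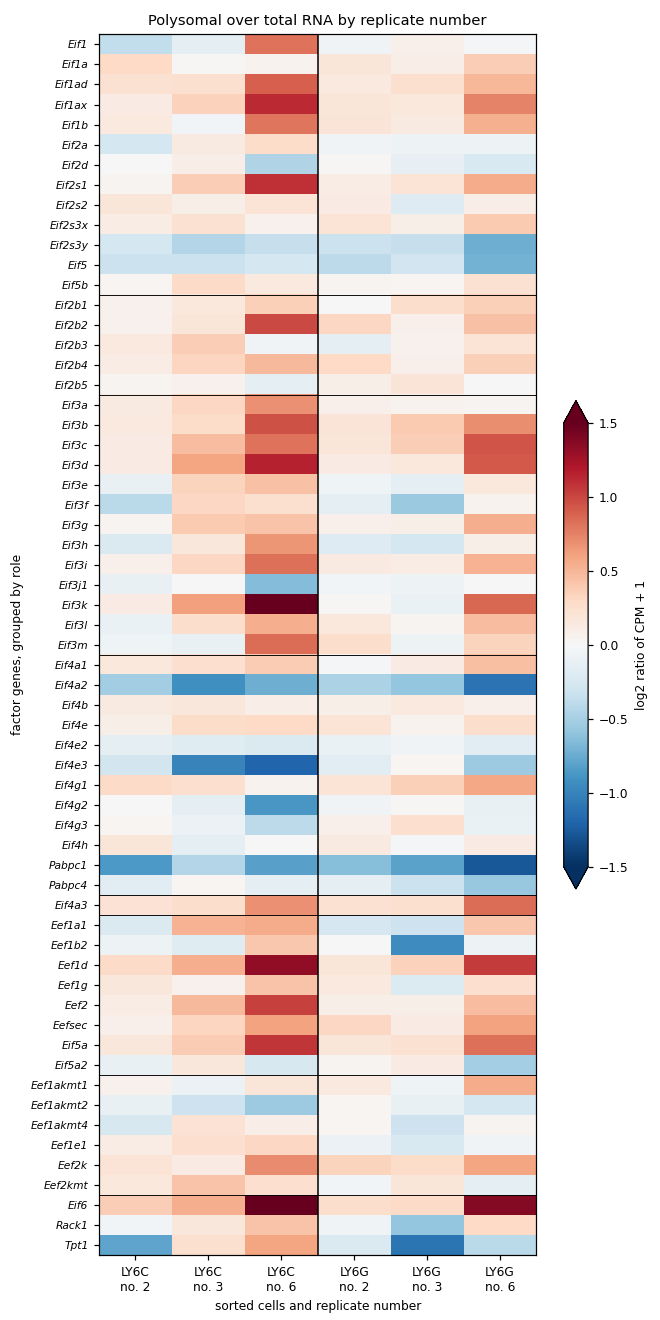
Log2 ratio of polysomal to total RNA, computed on CPM + 1, for the 61 tested members in functional order and for each replicate number of LY6C and LY6G, with red for a higher polysomal level and blue for a lower one. Pabpc1, Eif4a2 and Eif5 are blue in all 6 columns, Eif6 and Eef1d are red in all 6, and ratios beyond 1 in size are most frequent in number 6.

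In the sorted cells no gene of the TOP list was called between polysomal and total RNA, and the signs varied between libraries. Of its 12 genes, 11 had a positive difference in LY6C and 4 in LY6G, with medians of 0.18 and -0.11, and none was called. Their difference between LY6G and LY6C, the interaction of both contrasts, was negative for all 12 with a median of -0.31, beside -0.03 for all genes, and again none was called. By replicate number the list's median was -0.10, 0.21 and 0.44 in LY6C and -0.05, -0.29 and 0.12 in LY6G, so it took both signs in each population. The counts of signs are given without the share of all genes and come from the same few libraries. They are no result about the list.

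Paralog shares, per kilobase, were set side by side for polysomal and total RNA. These shares describe the RNA of each fraction, and a difference in loading between copies was not tested by them. Eif4a2 made up 22.8%, 29.6% and 40.2% of eIF4A mRNA in LY6C_T and 15.4%, 15.6% and 23.4% in LY6C_P, and 27.4%, 27.6% and 39.4% in LY6G_T and 21.7%, 18.8% and 17.6% in LY6G_P. The share was lower in polysomes in 6 of 6 pairs. Eif4e made up more of the cap binders in polysomes than in total RNA, 47.7% ± 3.42 (SD, n = 3) against 34.3% ± 3.29 in LY6C and 38.3% ± 1.49 against 32.2% ± 3.89 in LY6G. In exact two-sided permutation tests of 14 such shares, 6 had p = 0.1, the smallest that 3 against 3 libraries allow, with an adjusted p of 0.233. The tests leave out the pairing and at this size cannot reach 0.05, so they decide nothing. The 6 were Eif4e in both populations and Eif4a2, Eif4g2, Eif1 and Eif2s3x in LY6G. Pabpc1 made up 84.4% of poly(A)-binding mRNA in LY6C_T and 78.6% in LY6C_P, lower in polysomes in 3 of 3 pairs there and in 3 of 3 in LY6G.

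**Figure D4:**
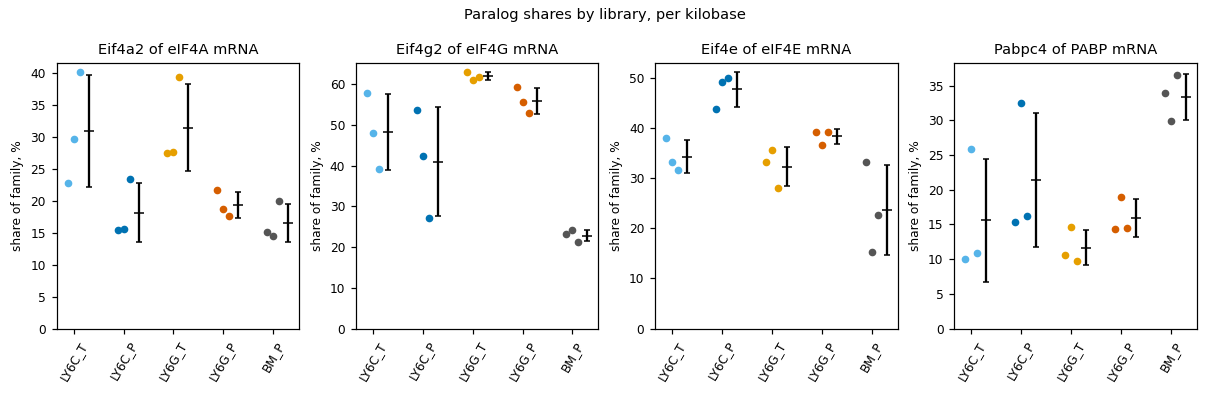
Share of Eif4a2 in eIF4A mRNA, of Eif4g2 in eIF4G mRNA, of Eif4e in eIF4E mRNA and of Pabpc4 in poly(A)-binding protein mRNA, in percent per kilobase, with 1 point for each library and mean ± SD at its right. BM_T is left out because some of its libraries held 9 or fewer counts of a family; the Eif4g2 share is lowest and the Pabpc4 share highest in BM_P.

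In whole marrow 5 of 61 members (8.20%) were higher in polysomal than in total RNA and none was lower, beside 3.39% of all genes called, 2.60% higher and 0.797% lower. The 61 had passed a filter over all 18 libraries. With the BM libraries alone, 43 members and 5168 genes were tested, and 0 members and 145 genes were called. The 8.20% is therefore no result about the factors. The direction over all genes turned with the setting: 368 higher and 113 lower became 67 and 133 with median-ratio factors, 82 and 418 with DESeq2 and 33 and 112 with the compared libraries alone. Eef1a1 had 538, 237 and 186 CPM in BM_T and 1803, 832 and 720 in BM_P, a log2 difference of 1.80 ± 0.43 (adjusted p = 0.0277), with no overlap. Eif3g, an RNA-binding subunit of eIF3, and Eif4a3, the helicase of the exon junction complex, rose by 1.88 ± 0.51 and 2.38 ± 0.62, on 6 and 5 counts in BM_T. Eif3l rose from 1 count, a pooled ratio of 12.6 with an interval of 2.18 to 505, and Eif2a, which had 0 counts in BM_T, was at least 3.17-fold higher. The calls rested on single libraries: without BM_P replicate 1 or without BM_T replicate 3 none was left, and without BM_T replicate 2 there was 1. With median-ratio factors or limma voom none was called, DESeq2 called Eef1a1 higher and Eif4e3 lower, and with the replicate number as a block 11 were.

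No factor passed the test between LY6G and LY6C cells. edgeR called 0 of 61 members in total and in polysomal RNA, as it called 0% of all genes, and DESeq2 and limma voom called no member. An unadjusted p under 0.05 was found for 2 and 6 members, given without the share of all genes and so no result about the factors. Eef2k had 3.80, 14.1 and 3.53 CPM in LY6C_T and 2.07, 3.30 and 1.72 in LY6G_T, and its polysomal difference was -1.37 ± 0.49 (adjusted p = 0.841). Eif4g2 stood at 0.36 ± 0.34 in total and 0.54 ± 0.34 in polysomal RNA, LY6G minus LY6C. The differences of the polysomal minus total contrasts called 0 members between LY6G and LY6C, 0% of all genes, and 0 between sorted cells and BM, beside 0.338% of all genes for LY6C (0.0846% higher, 0.254% lower) and 0.416% for LY6G (0.0987% and 0.317%). Over all genes this direction turned with DESeq2, to 153 higher and 30 lower for LY6C and 156 and 47 for LY6G, and with median-ratio factors, to 19 and 15 and to 22 and 17. Unadjusted p under 0.05 was reached by 0, 9 and 12 members, and DESeq2 and limma voom called none. Those numbers of members are given without the share of all genes, so they are no result about the factors. By edgeR the median over all genes was itself -0.64 for LY6C minus BM and -0.65 for LY6G minus BM, against -0.41 and -0.65 for the members. For Eef1a1 the value was -1.87 ± 0.59 for LY6G minus BM (adjusted p = 0.157), and with the replicate block -1.89 with an adjusted p of 0.025.

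Other genes of translation were followed from lists of 52 regulators, of which 51 were tested. In polysomal RNA, 8 were higher and 7 lower in LY6C_P than in BM_P, and 9 and 9 in LY6G_P. These are 15.7% and 13.7%, and 17.6% and 17.6%, beside the 20.2% and 11.2%, and 22.1% and 15.3%, of all genes, so the counts, and those of the smaller lists within them, are no result about the lists. None was called between the sorted groups or fractions. The eIF4A inhibitor Pdcd4 was lower: 2.58, 5.61 and 4.72 CPM in LY6C_P and 2.5, 2.508 and 2.412 in LY6G_P against 32.8, 46.8 and 48.5 in BM_P, a log2 difference of -3.31 ± 0.35 (adjusted p = 9.25e-07) and -4.11 ± 0.36 (adjusted p = 7.11e-08). Among 6 tested genes of the eIF2 kinases and their phosphatase, 2 rose and 1 fell in each comparison. Eif2ak2, the kinase PKR that senses double-stranded RNA, rose by 3.80 ± 0.60 and 4.14 ± 0.60, from 11 counts in BM_P, and Eif2ak4, the amino acid sensor GCN2, by 1.68 ± 0.49 and 1.60 ± 0.49. Eif2ak3, the endoplasmic reticulum kinase PERK, fell by 0.95 ± 0.35 and 1.47 ± 0.36. Ppp1r15a, the phosphatase subunit GADD34, was not called at 0.18 ± 0.43 and 0.37 ± 0.43.

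Of the hypusine and diphthamide enzymes, which modify eIF5A and eEF2, 1 of 8 was called: Dohh, the last hypusine enzyme, fell by 3.44 ± 0.47 and 4.05 ± 0.48, from 48.2, 26.0 and 27.4 CPM in BM_P to at most 4.70 in any sorted polysomal library. Among mTOR and S6 kinase genes 2 of 7 rose, Tsc2 (1.37 ± 0.30 and 1.31 ± 0.30) and Rheb (1.19 ± 0.32 and 1.24 ± 0.32), and Rptor fell (-1.12 ± 0.37 and -1.30 ± 0.37). Of 13 regulators of the cap complex, 0 rose and 2 fell in LY6C_P, and 1 rose and 3 fell in LY6G_P; Eif4ebp1 and Eif4ebp2, inhibitors of eIF4E, stood at 1.86 ± 0.64 and -0.94 ± 0.32 in LY6G_P. In termination and recycling 4 of 9 rose and 1 fell in each comparison, among them Mcts1 at 2.04 ± 0.48 and 1.87 ± 0.48; Etf1, the release factor eRF1, was called in LY6G_P alone at 1.17 ± 0.42, and Gspt1 in neither. Of 8 mitochondrial factors, Tsfm fell by 1.46 ± 0.42 and 2.59 ± 0.44, and Mtrf1l fell in LY6G_P by 1.66 ± 0.50.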

How the data were processed

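The deposited table holds raw counts per gene for 18 libraries, made by the authors; per the submitters' processing notes, FastQC, STAR 2.5.2a, DESeq, DESeq2 and GRCm38 (mm10) were used. The program, annotation and strand setting behind the counts are not given in the sources used here. Libraries were stranded and depleted of ribosomal RNA, per the labels' protocols. Gene names, classes and lengths came from GENCODE M21. Members and gene lists were chosen with earlier results of these data known.

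The model was edgeR 4.0.16 (run in R 4.3.3) on these counts: filterByExpr at a minimum count of 10 (14181 genes), TMM factors, 1 model with 6 group means and no block, robust quasi-likelihood F tests, and Benjamini-Hochberg adjustment over all genes within each of 12 comparisons. The common dispersion was 0.163. Log2 differences are given with SE, levels as mean ± SD. The fit was tested on simulated data. Named genes are the followed factors plus, per comparison, the 8 called members with the largest change each way at 10 CPM or more in the higher group. Total counts ran from 8559897 to 26225431 per library, and intervals (95%, exact) and floors of 3 counts cover counting error only.

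The replicate numbers pair the sorted libraries: deviations from the group means correlated at 0.31 to 0.85 for every same-numbered pair, and at 0.03 to 0.06 in BM. The p-values measure the spread between libraries within the 6 groups, estimated over all groups together, BM_T with its few counts included. Replicates are biological as the series text names them. Without a block, libraries of the same number count as independent, although they correlated in the sorted cells. Alternatives were DESeq2 1.42.0, limma 3.58.1 voom, median-ratio factors, other filters, the compared libraries alone, a replicate block and leaving out libraries.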

Additional observations from a re-analysis of the deposited data

How the results depend on the processing

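No member called by edgeR changed sign under an alternative. Of the named differences that were not called, 7 did, in 21 instances. With median-ratio factors, limma voom or DESeq2, Eif2s1 in LY6G_P minus BM_P became 0.04, and with limma voom Pabpc1 in LY6C_T minus BM_T became 0.00. Without the filter, Eef2 in LY6C_P became 0.04 and Eif2s1 in LY6G_P 0.02. With the stricter filter, Eif2s1 in LY6C_P became -0.08, Eif4g1 in LY6G_P -0.05 and Ppp1r15a in LY6C_P -0.04, and with the compared libraries alone Eif2s1 in LY6C_P became -0.06. Leaving out single libraries gave -0.25 to 0.25 for Eef2 in LY6C_P, -0.26 to 0.60 for Eif2s1 in LY6C_P and -0.50 to 0.36 in LY6G_P, -0.75 to 0.01 for Eif6 in LY6C_P, -0.37 to 0.07 for Pabpc1 in LY6C_T, and -0.28 to 0.64 for Ppp1r15a in LY6C_P. Without sorted replicate number 2, Eif2s1 in LY6C_P became -0.02 and Ppp1r15a -0.49, and without number 6 Eif2s1 became -0.12. With no call by edgeR, limma voom gave 1 in LY6G_P minus LY6G_T (Pabpc1), beside 100 of all genes (2 higher, 98 lower). In LY6C_T minus BM_T, the compared libraries alone gave 9 members called in place of 18. In BM_P minus BM_T the 5 became 0 with median-ratio factors, 0 with the compared libraries alone, 0 with limma voom, 2 with DESeq2 (Eef1a1 of the 5, and Eif4e3 lower), 3 without mitochondrial and the most abundant genes, and 8 with a filter of 50 counts in 3 libraries. With the replicate block, pairing libraries by number, 11 members were called in BM_P minus BM_T and 1 (Eef1a1) in the difference of LY6G and BM efficiencies; it changed no other count of calls among the comparisons within a source, and no such fit was made for sorted cells minus BM, whose samples do not pair. The cause of these changes was not tested. Leaving out libraries gave 0 to 6 calls in BM_P minus BM_T, 7 to 18 in LY6C_P minus BM_P, 12 to 23 in LY6G_P minus BM_P, 9 to 17 in LY6C_T minus BM_T, 13 to 21 in LY6G_T minus BM_T (14 without BM_T replicate 2), 0 to 1 in the LY6C and in the LY6G efficiency differences with BM, and 0 in the others. Of the calls, 7 of 20 in LY6C_P and 11 of 22 in LY6G_P stood in every alternative. The median of all genes in LY6C_T minus BM_T was 1.65, 1.36 with median-ratio factors, 0.18 with DESeq2 and 0.05 with limma voom, and in LY6C_P minus BM_P 0.52, 0.58, 0.44 and 0.12, so differences from BM are relative to these. The split of members was 9 higher and 5 lower in LY6C_T with median-ratio factors and 9 and 11 in LY6C_P with the stricter filter. The few counts of BM_T limit every comparison with it.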
